A study of Mus musculus with 2 samples.

Results

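The 10 genes described here are the BMP ligands Bmp2, Bmp4, Bmp5, Bmp6 and Bmp7, the Id genes Id1, Id2 and Id3, and the inhibitory Smad genes Smad6 and Smad7, chosen by name from the 28692 genes of the count matrices. They were measured by single-cell RNA sequencing in cultured cells of the mouse heart base, 1 dorsal and 1 ventral library, over all barcodes with at least 8000 unique molecular identifiers (UMIs) and at most 20% mitochondrial UMIs. The dorsal pool came from tissue that included the pulmonary veins, the sinoatrial node and cardiac ganglia, and the ventral pool from tissue that included the base of the outflow tract, the pulmonary artery and the first stretch of the aorta. Both pools were made from 15 hearts of C57Bl6 mice, male and female, 3 days old, and both were kept for 5 days as adherent cultures and released with trypsin before 10x Genomics 3' v3 libraries were made. The cells are those that attached in culture, and cell class names below describe marker patterns in cultured cells. There was 1 library per domain, so domain, pool, culture and library preparation cannot be told apart, no test between domains was made, and every interval is a 95% interval that covers counting error only.

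Bone morphogenetic proteins (BMPs) are secreted ligands that bind pairs of type I and type II receptor kinases, which phosphorylate Smad1, Smad5 and Smad9; these join Smad4 in the nucleus. Id1, Id2 and Id3, which encode proteins that bind and inactivate basic helix-loop-helix transcription factors, are direct targets in many cell types. Smad6 and Smad7 are induced as negative feedback, Smad6 acting mainly on BMP signals and Smad7 on both BMP and TGF-beta signals. In the developing heart, BMP ligands act in the cushions, the outflow tract and the inflow region. Id2 and Smad7 are also controlled by other pathways, so their transcripts are not a readout of BMP alone.

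On GRCm38, the assembly behind mm10, with GENCODE M21 gene models, Bmp2 lies at chr2:133552159-133562885, Bmp7 at chr2:172868012-172940321 and Id1 at chr2:152736251-152737410. Bmp5 lies at chr9:75775364-75900310 and Smad6 at chr9:63953076-64022059, Bmp4 at chr14:46383520-46390669 and Bmp6 at chr13:38345107-38500302. Id2 lies at chr12:25093799-25097140 and Id3 at chr4:136143497-136145755.

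Promoter sequences are shown for the 2 response genes whose window held a Smad-type motif. Of the 10 genes, 6 (Bmp4, Bmp5, Bmp6, Id2, Id3 and Smad6) had a RefSeq promoter entry on GRCm38.p6, a window of 300 bases with 250 before and 50 after the RefSeq gene start. Both motifs searched read the same on both strands, so 1 search covers both. GTCTAGAC, a palindrome of the Smad-binding element, occurred in 70 of 32851 RefSeq promoters (0.213%), and GGCGCC, a GC-rich element bound by BMP-activated Smads, in 3898 of 32851 (11.9%). Smad6 held the palindrome once, beginning at position -4 from its RefSeq start, in chr9:64022010-64022309 on the minus strand. Id2 held GGCGCC once, at position -231, in chr12:25096043-25096342 on the minus strand. The RefSeq start of Id2 lies 1048 bases downstream of the start of the GENCODE gene given above, so this window is inside that gene model, while for Smad6 both starts are the same base. The other 4 windows held neither. The sequences run 5′ to 3′ with the motif in capitals.
Smad6 promoter: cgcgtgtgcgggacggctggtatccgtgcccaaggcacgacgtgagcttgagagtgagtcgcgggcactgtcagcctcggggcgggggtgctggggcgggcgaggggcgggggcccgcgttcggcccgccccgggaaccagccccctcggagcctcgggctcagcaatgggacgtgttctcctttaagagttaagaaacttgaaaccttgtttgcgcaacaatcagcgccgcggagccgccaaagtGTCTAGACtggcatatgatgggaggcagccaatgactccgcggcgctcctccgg
Id2 promoter: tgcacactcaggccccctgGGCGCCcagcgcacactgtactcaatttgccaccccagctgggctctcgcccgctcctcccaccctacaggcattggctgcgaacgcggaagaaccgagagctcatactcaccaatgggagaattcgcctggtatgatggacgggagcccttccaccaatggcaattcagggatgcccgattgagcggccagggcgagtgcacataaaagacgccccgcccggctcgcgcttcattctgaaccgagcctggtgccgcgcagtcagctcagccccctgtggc
A match here is a description of letters in this window and says nothing of binding.

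The dorsal library had 8926 cells with a median of 22774 UMIs and 4512 genes, and the ventral library 10649 cells with a median of 21462 UMIs and 4303 genes. These cells held 92.8% of 246920028 dorsal and 95.6% of 264822916 ventral UMIs, and 22 barcodes occurred in both libraries. Levels are given as CPM, UMIs of a gene scaled to the total UMIs of the cells summed. The summed level of 9 immediate early genes, which respond to handling as well as to growth factors, was 2161 CPM in the dorsal and 1013 CPM in the ventral cells, and 2.18% of dorsal and 7.69% of ventral cells exceeded 0.1% of UMIs in cell cycle genes. Of 13 mural markers, 12 reached a mean of 1 CPM, with 2 past 2-fold on the dorsal and 7 on the ventral side and a summed level of 1786 CPM in the dorsal and 9289 CPM in the ventral cells. The part of these differences in the results below was not tested, except where a value is given. In sums over all cells, fewer cells of a type and less RNA per cell cannot be told apart.

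Over all cells, the ligands split by domain, while the 5 response genes all had the lower level in dorsal cells. Bmp4 had 24.5 CPM in dorsal cells (interval 23.9 to 25.1) and 76.6 CPM in ventral cells (75.5 to 77.7), for a log2 ratio of dorsal over ventral of -1.64 (-1.69 to -1.60). Bmp2 ran the other way, with 8.61 CPM in the dorsal and 3.11 CPM in the ventral cells, for a log2 ratio of 1.47 (1.35 to 1.59). Bmp5, Bmp6 and Bmp7 were rare. Bmp5 had 217 dorsal UMIs (0.947 CPM) and 35 ventral UMIs (0.138 CPM), a log2 ratio of 2.78 (2.26 to 3.33). Bmp7 had 54 dorsal and 12 ventral UMIs, at 0.236 and 0.0474 CPM, a log2 ratio of 2.31 (1.39 to 3.35). Bmp6 was sparse and lower in dorsal cells, with 49 UMIs (0.214 CPM) against 229 UMIs (0.905 CPM) in ventral cells, for a log2 ratio of -2.08 (-2.56 to -1.63). The Bmp2 ratio rests on 1972 dorsal and 786 ventral UMIs and the Bmp4 ratio on 5613 and 19390, which makes their intervals narrow, while the Bmp7 interval spanned several-fold.

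Among the response genes, Id1 had the widest difference. It had 42.6 CPM in dorsal (41.7 to 43.4) and 128 CPM in ventral cells (127 to 130), for a log2 ratio of -1.59 (-1.63 to -1.56). Smad6 had 12.0 CPM in the dorsal and 31.4 CPM in the ventral cells, for a log2 ratio of -1.39 (-1.45 to -1.33), and Smad7 had 56.5 and 128 CPM in dorsal and ventral cells, a log2 ratio of -1.18 (-1.21 to -1.15). Id3 had 520 CPM in the dorsal and 734 CPM in the ventral cells (-0.50, -0.51 to -0.49), and Id2 had 64.0 CPM in the dorsal and 86.0 CPM in the ventral cells (-0.43, -0.46 to -0.40). So the differences of Id2 and Id3 stayed under 2-fold while those of Id1, Smad6 and Smad7 passed it.

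Of all 12490 genes at a mean of at least 1 CPM, 987 (7.9%) passed 2-fold on the dorsal side and 657 (5.26%) on the ventral side, and the median log2 ratio was 0.09. Of the 7 BMP ligand and response genes at that minimum, 1 passed 2-fold on the dorsal side (Bmp2) and 4 on the ventral side (Bmp4, Id1, Smad6 and Smad7). Bmp5, Bmp6 and Bmp7 were below the minimum, so these shares do not cover them. Bmp5 and Bmp7 were past 2-fold on the dorsal side and Bmp6 on the ventral side. Scaling by TMM or by a median of ratios moved the all-gene median to -0.03 and -0.05, and no gene of the 10 changed direction.

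**Figure D1:**
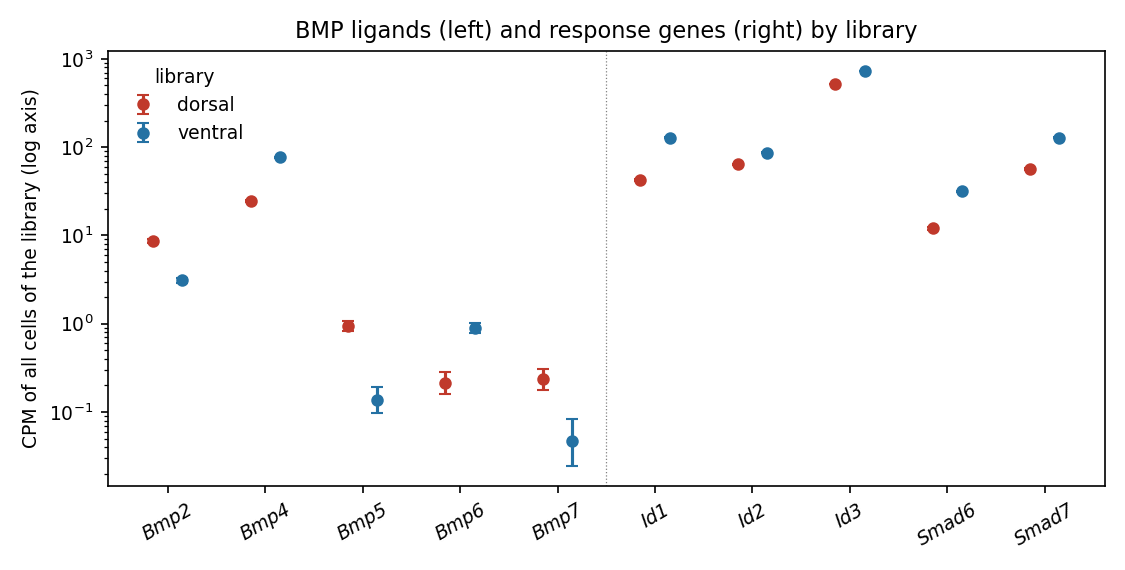
CPM of the 10 genes on a log axis, summed over all cells of the dorsal (red) and ventral (blue) library; bars are 95% Poisson intervals for counting error only. Bmp2, Bmp5 and Bmp7 have the higher dorsal point (Bmp2 8.61 against 3.11 CPM), while Bmp4, Bmp6 and all 5 response genes have the higher ventral point.

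The same order held in the share of cells with a UMI once every cell was thinned to 8000 UMIs. Bmp4 was seen in 15.6% of dorsal and 37.2% of ventral cells, or 29.5% and 60.9% without thinning. In macrophage-like cells, taken as a class that should lack Bmp4, the thinned share was 2.55% of dorsal and 4.58% of ventral cells, at median depths of 43244 and 27578 UMIs. Bmp2 was seen in 6.32% of dorsal and 2.39% of ventral cells (12.5% and 5.42% unthinned), beside 2.14% of dorsal and 0.513% of ventral Schwann and glial-like cells, at 13261 and 17412 UMIs. Id1 was seen in 18.4% of dorsal and 46.6% of ventral cells (33.3% and 67.8% unthinned), Smad6 in 9.20% and 21.4% (21.8% and 45.4%) and Smad7 in 32.0% and 59.5% (59.2% and 86.1%). In macrophage-like cells, the class with the lowest levels of these 3 genes in the dorsal library, the thinned shares were 8.16% dorsal and 8.40% ventral for Id1, 3.06% dorsal and 6.11% ventral for Smad6, and 10.7% dorsal and 13.7% ventral for Smad7. Most thinned cells had a UMI of none of the 5 ligands, 78.8% of dorsal and 60.7% of ventral cells, and 1.95% of dorsal and 1.17% of ventral cells had UMIs of 2 of them.

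The sources of each ligand were then located in clusters made without the 10 genes and without the other BMP pathway genes. Clusters with at least 50 cells in a library gave 25 sums, 13 dorsal and 12 ventral, and each is called by its leading gene. Bmp2, a ligand of cushion and endocardial tissue in the embryo, had its highest level in the endothelial-like cluster led by Nts and Emcn. It had 128 CPM there in the dorsal library (114 to 142) and 52.1 CPM in the ventral library (44.4 to 60.6). These cells were 1.19% of dorsal and 1.34% of ventral cells but held 16.8% of dorsal and 21.0% of ventral Bmp2 UMIs. The next level, 31.7 CPM, was in the dorsal Col10a1 cluster, which was led by Col10a1 and Mmp3 and got no class name, and the dorsal Cdo1 fibroblast-like cluster had 16.7 CPM and 25.8% of all dorsal Bmp2 UMIs. The ventral mesothelial-like cells, led by Msln, had 12 Bmp2 UMIs in 876 cells (0.474 CPM). Macrophage-like cells had 9.99 CPM in the dorsal and 14.7 CPM in the ventral cells, the lower level in the dorsal library in this class, unlike the sum over all cells. Of the 25 sums, 5 reached 10 CPM for Bmp2 and 21 for Bmp4.

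Bmp4, a ligand of mesenchyme and outflow tract muscle in the embryo, was spread more evenly. The highest sum was the ventral mural-like Igfbp2 cluster with 184 CPM (176 to 192), followed by the ventral endothelial-like cluster with 174 CPM (160 to 189); their intervals overlap. The ventral mural-like Higd1b cluster had 143 CPM (134 to 152). In dorsal cells the endothelial-like cluster had 96.6 CPM (85.0 to 109), the mural-like Cxcl15 cluster 79.8 CPM and the Col10a1 cluster 79.1 CPM. The other dorsal mural-like cluster, led by Des and Actg2, had the lowest level of all, 4.12 CPM from 11 UMIs, so the 2 dorsal mural-like clusters lay almost at opposite ends of the dorsal order. Fibroblast-like cells, the largest class, held 54.7% of dorsal and 59.1% of ventral Bmp4 UMIs, and were 60.5% of dorsal and 66.7% of ventral cells. Of the 10 highest Bmp4 sums, 7 were ventral.

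Bmp5 and Bmp7, which can pair with other BMPs and are known from cartilage and skeletal tissue, met in 1 cluster. The dorsal Col10a1 cluster, 6.51% of dorsal cells, held 127 of 217 dorsal Bmp5 UMIs (58.5%) at 14.2 CPM (11.9 to 17.0), and 26 of 54 dorsal Bmp7 UMIs (48.1%) at 2.92 CPM. After thinning, 11.2% of its cells had a Bmp5 UMI (18.9% unthinned), against 0.214% of dorsal Schwann and glial-like cells (0.428% unthinned), at median depths of 13926 and 13261 UMIs. In the ventral library 18 of 35 Bmp5 UMIs fell in the Higd1b mural-like cluster, at 2.45 CPM. Of the 12 ventral Bmp7 UMIs, 4 were in 31 cardiomyocyte-like cells. The highest level of Bmp6 was 2.52 CPM from 8 UMIs in ventral endothelial-like cells, and 40.2% of ventral Bmp6 UMIs were in the Gpx3 fibroblast-like cluster, which was 27.2% of ventral cells. In the dorsal library 24 of 49 Bmp6 UMIs (49.0%) were in the Sele cluster, 17.6% of dorsal cells, and 18 (36.7%) in the Saa3 cluster, 11.4% of dorsal cells.

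**Figure D2:**
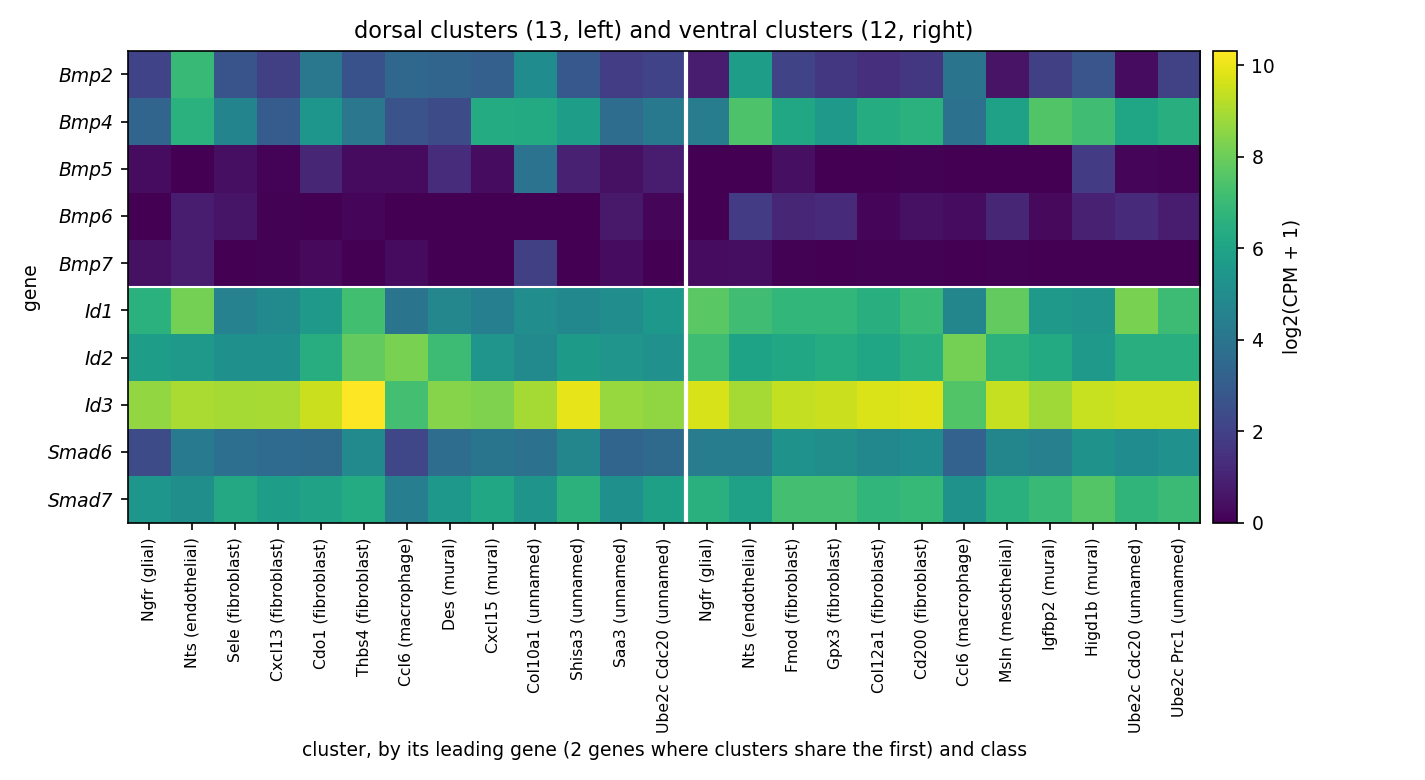
log2(CPM + 1) of the 10 genes (rows) in the 13 dorsal cluster sums (left of the white line) and 12 ventral cluster sums (right), each named by its class and its leading gene, or by 2 genes where clusters share the first. Bmp2 stands out in the endothelial-like cluster (128 CPM dorsal, 52.1 CPM ventral), Bmp5 and Bmp7 in the dorsal Col10a1 cluster, and Id2 in macrophage-like cells of both libraries.

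The Id genes differed in where they were highest. Among the 25 sums, Id1 ranged from 14.7 CPM in dorsal macrophage-like cells to 304 CPM in the ventral Ube2c and Cdc20 cluster. That cluster is led by cell cycle genes. The dorsal endothelial-like cells followed with 284 CPM, the ventral Msln cluster with 229 CPM and the ventral Schwann and glial-like cells with 203 CPM. Id1 in the Msln cluster made up 17.9% of all ventral Id1 UMIs, from 8.23% of ventral cells. Of the 10 highest Id1 sums, 8 were ventral, the exceptions being the dorsal endothelial-like cluster and the dorsal Thbs4 fibroblast-like cluster with 145 CPM. Id2, which has roles in blood cell lineages, was highest in macrophage-like cells, with 306 CPM in the dorsal and 289 CPM in the ventral cells. These were 2.20% of dorsal and 1.23% of ventral cells and held 19.0% of dorsal and 5.24% of ventral Id2 UMIs. Id1 in the same cells was 14.7 CPM in the dorsal and 25.8 CPM in the ventral library, and their Id3 sums, 148 CPM dorsal and 184 CPM ventral, were the lowest of all 25. Id3 was highest in the dorsal Thbs4 cluster, at 1276 CPM, next to 992 CPM in the dorsal Shisa3 cluster.

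Smad6 and Smad7 were higher in most ventral clusters than in most dorsal ones. Ventral macrophage-like cells were an exception, with 8.35 CPM of Smad6 and 37.2 CPM of Smad7. Smad6 ranged from 3.62 CPM in dorsal macrophage-like cells to 38.4 CPM in the ventral Fmod fibroblast-like cluster, next to 37.4 CPM in the ventral Higd1b mural-like cluster. The highest dorsal Smad6 sums were 28.8 CPM in the Thbs4 cluster and 25.8 CPM in the Shisa3 cluster. Smad7 ranged from 20.3 CPM in dorsal macrophage-like cells to 187 CPM in the ventral Higd1b mural-like cluster. Among the 10 highest sums, 8 were ventral for Smad6 and 9 for Smad7. Many neighbours in these orders did not differ beyond counting error: the intervals of adjacent sums overlapped in 23 of 24 pairs for Smad6, 18 for Smad7, 15 for Id1 and 20 each for Bmp4 and Id2. For Id3, the gene with the most UMIs, they overlapped in 11 of 24.

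The domains were then compared within cell classes of at least 50 cells per library, which takes class shares out of the ratio. In fibroblast-like cells, 5396 dorsal and 7108 ventral, Bmp4 had 21.1 CPM in the dorsal and 69.1 CPM in the ventral cells, for a log2 ratio of -1.71 (-1.77 to -1.66). Id1 had 38.2 and 114 CPM in the dorsal and ventral class (-1.58), Smad6 12.9 and 33.0 CPM (-1.36) and Smad7 63.7 and 136 CPM (-1.10), while Id2 (-0.49) and Id3 (-0.41) stayed under 2-fold. Bmp2, below the level minimum used within classes, had 980 dorsal and 393 ventral UMIs in this class, at 6.73 and 2.37 CPM. Of 7363 genes at a mean of 10 CPM in this class, 4.12% passed 2-fold on the dorsal side and 4.24% on the ventral side, and of the 6 BMP genes at that minimum 0 were dorsal and 4 ventral. The dorsal class was made of the Sele, Cxcl13, Cdo1 and Thbs4 clusters and the ventral class of the Fmod, Gpx3, Col12a1 and Cd200 clusters, so the ratio compares different clusters. Mural markers summed to 1325 CPM in the dorsal and 7558 CPM in the ventral fibroblast-like cells, and immediate early genes to 2459 CPM in the dorsal and 1154 CPM in the ventral ones; their part in these ratios was not tested.

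In mural-like cells, 602 dorsal from the Des and Cxcl15 clusters and 1032 ventral mainly from the Igfbp2 and Higd1b clusters, Bmp4 had 67.4 CPM in the dorsal and 165 CPM in the ventral cells (log2 -1.29, -1.41 to -1.18). Smad7 had 65.8 CPM in the dorsal and 149 CPM in the ventral cells (-1.18), Id1 22.1 and 44.4 CPM (-1.01), Smad6 14.4 and 27.8 CPM (-0.94) and Id3 324 and 572 CPM (-0.82). The Id2 ratio was -0.12 (-0.26 to 0.02) and turned to 0.51 at a finer clustering. The 2 dorsal clusters were unlike in Id2, with 355 UMIs in 135 cells of the Des cluster and 315 UMIs in 455 cells of the Cxcl15 cluster. The ratios in this class thus compare mainly different clusters. In this class 5.33% of genes passed 2-fold on the dorsal side and 3.86% on the ventral side, and of 6 BMP genes 0 were dorsal and 3 ventral.

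Schwann and glial-like cells, 467 dorsal and 195 ventral in 1 cluster with Ngfr, Sox10 and Foxd3, had all 5 response genes lower in the dorsal library by more than 2-fold. Smad6 had 4.07 CPM in the dorsal and 19.3 CPM in the ventral cells (log2 -2.25, -2.89 to -1.63), from 32 and 75 UMIs. Id2 had 54.8 CPM in the dorsal and 136 CPM in the ventral cells (-1.31), Smad7 42.1 and 93.8 CPM (-1.16), Id1 94.3 and 203 CPM (-1.11) and Id3 400 and 831 CPM (-1.06). In this class 3.37% of genes passed 2-fold on the dorsal side and 2.55% on the ventral side, and of 6 BMP genes 0 were dorsal and 6 ventral, Bmp4 being the sixth. The Bmp4 value depends on barcodes marked by the doublet caller Scrublet: with all barcodes it was 9.40 CPM in the dorsal and 19.3 CPM in the ventral cells (-1.04), and without the marked ones it was 5.31 CPM from 32 UMIs in dorsal and 0.356 CPM from 1 UMI in ventral cells, for a log2 ratio of 3.90 (1.32 to 9.25). The response genes kept their direction without the marked barcodes, at -0.92 for Id1, -1.61 for Id2, -1.22 for Id3, -2.86 for Smad6 and -1.19 for Smad7. They also kept it in both sub-clusters of a finer clustering, of 312 dorsal and 66 ventral cells and of 157 dorsal and 130 ventral cells, where Smad6 had log2 ratios of -3.76 and -1.24; the second of these sub-clusters had 29.97% marked barcodes. The 13 mural markers summed to 344 CPM in dorsal and 2097 CPM in ventral glial-like cells. Barcodes of at most 100 UMIs, which hold free RNA, had 13.8 CPM of Smad6 in the dorsal and 30.3 CPM in the ventral library. Bmp4 had 26.2 and 62.0 CPM in those barcodes, Id1 50.6 and 123 CPM, and Smad7 53.3 and 105 CPM. Id2 had 67.1 and 97.5 CPM there, and Id3 657 and 889 CPM. The part of mural markers or free RNA in the glial ratios, or in those of the other classes, was not tested.

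Endothelial-like cells, 106 dorsal and 143 ventral in 1 cluster, had Id1 and Bmp2 higher in the dorsal library. Id1 had 284 CPM in dorsal (737 UMIs) and 141 CPM in ventral cells (448 UMIs), for a log2 ratio of 1.01 (0.83 to 1.18), and Bmp2 had 128 and 52.1 CPM in the dorsal and ventral class, a log2 ratio of 1.30 (1.02 to 1.57). Bmp4 was lower in dorsal cells, at 96.6 CPM against 174 CPM in ventral cells (-0.85, -1.07 to -0.63), and so was Smad7, at 34.6 against 59.0 CPM (-0.77). Id3 (0.07, -0.04 to 0.18) and Smad6 (-0.06, -0.64 to 0.51) had intervals that span 0; the Smad6 interval is wide, from 48 and 61 UMIs. The Id2 ratio was -0.39 and turned to 0.12 without the barcodes marked by Scrublet, while the Id1 ratio was 1.02 without them. Of 8085 genes at 10 CPM, 6.13% passed 2-fold on the dorsal side and 3.62% on the ventral side, and of 7 BMP genes 2 were dorsal (Bmp2 and Id1) and 0 ventral. Mural markers summed to 231 CPM in dorsal and 1447 CPM in ventral endothelial-like cells, and their part in these ratios was not tested.

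In macrophage-like cells, 196 dorsal and 131 ventral, no BMP gene of the 5 at the minimum was 2-fold apart, where 3.1% of genes passed 2-fold on the dorsal side and 2.79% on the ventral side. Id2 had 306 and 289 CPM in dorsal and ventral cells (log2 0.08, -0.02 to 0.19), Id1 14.7 and 25.8 CPM (-0.81) and Smad7 20.3 and 37.2 CPM (-0.87). Bmp4 and Smad6 missed the 10 CPM class minimum here but were past 2-fold on the ventral side. The Bmp4 ratio was -1.38 (-1.98 to -0.78), from 47 dorsal and 53 ventral UMIs. The Smad6 ratio was -1.20 (-1.95 to -0.46), from 33 UMIs in each library. Bmp5, Bmp6 and Bmp7 had at most 2 UMIs per library in this class. The Ube2c and Cdc20 cluster, 183 dorsal and 208 ventral cells with cell cycle genes, had no class name and a wider Id1 difference than the named classes: 44.0 CPM in the dorsal and 304 CPM in the ventral cells, for a log2 ratio of -2.79 (-2.97 to -2.62). Bmp4 there had 17.1 CPM in the dorsal and 67.8 CPM in the ventral cells (-1.99). Of its genes 4.96% passed 2-fold on the dorsal side and 6.53% on the ventral side, and of 6 BMP genes 0 were dorsal and 4 ventral. The 2 libraries put different cells into this cluster. Mesothelial markers summed to 55.2 CPM in its dorsal and 2183 CPM in its ventral cells, and at a finer clustering 175 of the 183 dorsal cells fell in a cluster led by Tpx2 and Cdc20, with no ventral cell, and all 208 ventral cells in one led by Upk1b and Lrrn4, with 4 dorsal cells. So the ratios in the Ube2c and Cdc20 cluster set cycling cells of different kinds against each other. Leaving out all cells with cell cycle genes above 0.1% of UMIs changed no direction over all cells.

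**Figure D3:**
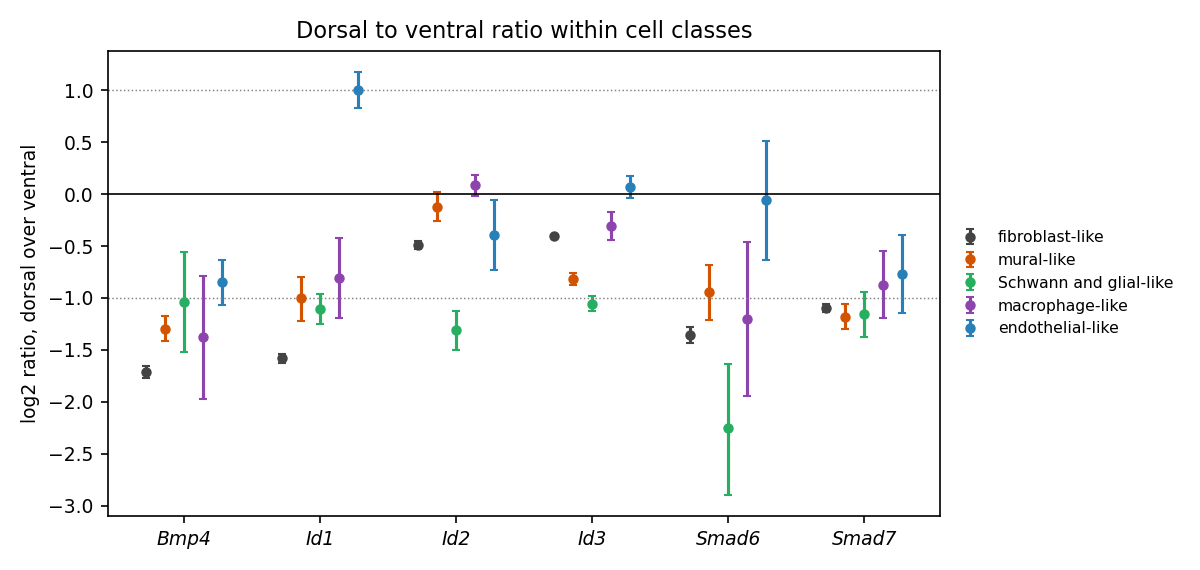
log2 ratio of dorsal over ventral CPM (vertical axis) for Bmp4, the Id genes and the inhibitory Smads within 5 cell classes; bars are 95% intervals for counting error only and dotted lines mark 2-fold. Id1 lies at 1.01 in endothelial-like cells and between -1.58 and -0.81 in the other 4 classes; Smad7 lies below 0 in all 5.

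With each shared class set to the mean of its 2 shares, Bmp4 had a log2 ratio of -1.53, Id1 -1.06, Smad6 -1.26, Smad7 -1.04, Bmp2 1.33 and Bmp6 -2.52. The mesothelial-like class and the cell cycle cluster led by Ube2c and Prc1 had only 11 dorsal cells each. Each was 0.123% of dorsal cells but was weighted at 4.17% and 4.32%. Those dorsal cells held 63 and 122 Id1 UMIs, so the dorsal Id1 level in this setting leans on few cells. Bmp5 went to 1.58 and Bmp7 to 0.35. This setting leaves out some clusters with few or no ventral cells, among them the Col10a1 cluster, and also reweights the shared classes. The part of each in the Bmp5 and Bmp7 values was not tested.

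Within the fibroblast-like class the 4 dorsal and 4 ventral clusters did not overlap for Bmp4 or Smad7. Bmp4 ran from 6.93 CPM in the Cxcl13 cluster to 42.0 CPM in the Cdo1 cluster on the dorsal side, and from 47.0 CPM in the Gpx3 cluster to 94.5 CPM in the Cd200 cluster on the ventral side. Smad7 ran from 53.2 to 80.7 CPM in dorsal and from 108 to 151 CPM in ventral clusters. For Id1, Id2, Id3 and Smad6 they did overlap, through the Thbs4 cluster alone for Id1 and Smad6 and through the Thbs4 and Cdo1 clusters for Id2 and Id3. The 4 clusters of a domain come from 1 library and are not replicates. The share of all genes whose clusters lie apart in this way is not given. So the separation cannot be read as particular to Bmp4 and Smad7.

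The Thbs4 cluster, 393 dorsal cells, had high levels of the response genes for a fibroblast-like cluster. Its levels of Id1 (145 CPM), Id2 (225 CPM) and Id3 (1276 CPM) were the highest of the 8 fibroblast-like clusters, and its Smad6 (28.8 CPM) was the highest of the 4 dorsal ones, where the other 3 had 10.8 to 12.8 CPM. Its Bmp4 was 16.2 CPM and its Bmp2 5.05 CPM, both within the range of the other dorsal clusters, and its Bmp2 was above that of the 4 ventral fibroblast-like clusters, at most 3.37 CPM. The same cells had the highest levels of the secreted BMP antagonists Grem1 (958 CPM), Nog (26.8 CPM) and Chrdl1 (38.7 CPM) of all 25 sums, and of the type I receptor gene Bmpr1b (31.9 CPM).

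**Figure D4:**
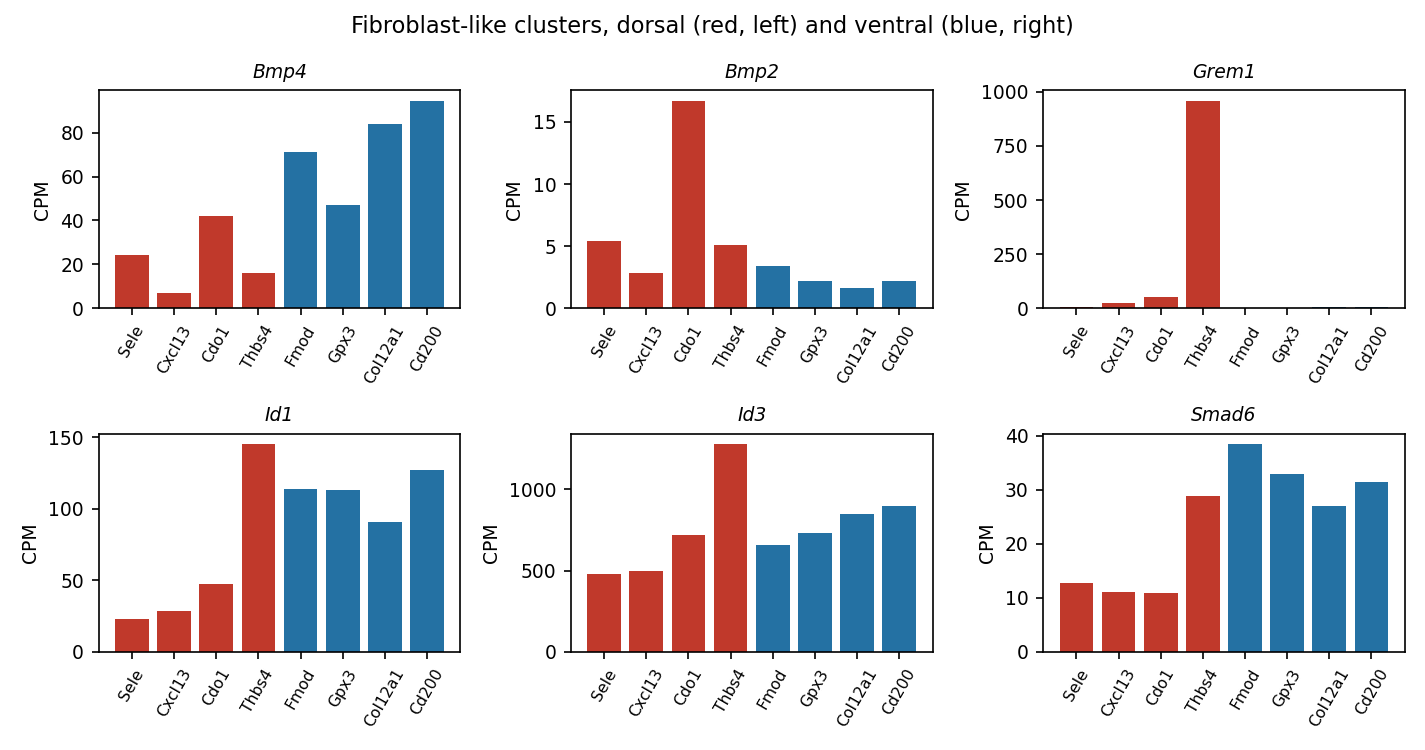
CPM of Bmp4, Bmp2, Grem1, Id1, Id3 and Smad6 in the 4 dorsal (red) and 4 ventral (blue) fibroblast-like clusters, each named by its leading gene, with a separate axis from 0 in each panel. The Thbs4 bar is the highest of the 4 dorsal bars for Grem1 (958 CPM), Id1 (145 CPM), Id3 (1276 CPM) and Smad6 (28.8 CPM), but not for Bmp4 or Bmp2.

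Ligand and response levels were next set side by side across the 25 sums, on log2(CPM + 1). These are descriptions: the sums share 2 libraries and differ in depth, so no p-value is given. Bmp4 and Smad6 had a Pearson r of 0.70 (Spearman rho 0.63) and Bmp4 and Smad7 0.61 (0.54). Within the 13 dorsal sums Bmp4 had r of 0.55 (rho 0.59) with Smad6 and 0.35 (0.24) with Smad7, and within the 12 ventral sums 0.55 (0.17) and 0.48 (0.35), so all 4 pooled values lay above those within either library, and by rank the ventral value for Smad6 was low. Bmp4 and Id1 had r of 0.41 over all sums, 0.27 in dorsal and 0.02 in ventral sums: the 2 ventral mural-like clusters with the most Bmp4 beside the endothelial-like one, Igfbp2 and Higd1b, had Id1 levels of 45.5 and 40.7 CPM, among the lowest ventral values. Bmp4 and Id2 had r of -0.33, and -0.86 in ventral sums, but -0.04 without the endothelial, macrophage, glial and muscle clusters. Bmp2 had no positive r with any response gene over all 25 sums, with -0.53 for Smad7 the lowest. Bmp5 and Bmp7 had r of 0.67 but a Spearman rho of -0.13, and both had their highest level of the 25 sums in the Col10a1 cluster.

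The response genes were more alike with each other. Smad6 and Smad7 had r of 0.87 over the 25 sums, 0.71 in dorsal and 0.91 in ventral sums. Id3 had r of 0.77 with Smad6 and 0.71 with Smad7, and Id1 0.60 with Id3 and 0.56 with Smad6, while Id2 had r of 0.11 with Id1, -0.18 with Id3 and -0.09 with Smad6. These values of Id2 changed with the clusters included: without the endothelial, macrophage, glial and muscle clusters they were 0.63 with Id1, 0.52 with Id3 and 0.45 with Smad6, and within ventral sums -0.18, -0.63 and -0.78.

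**Figure D5:**
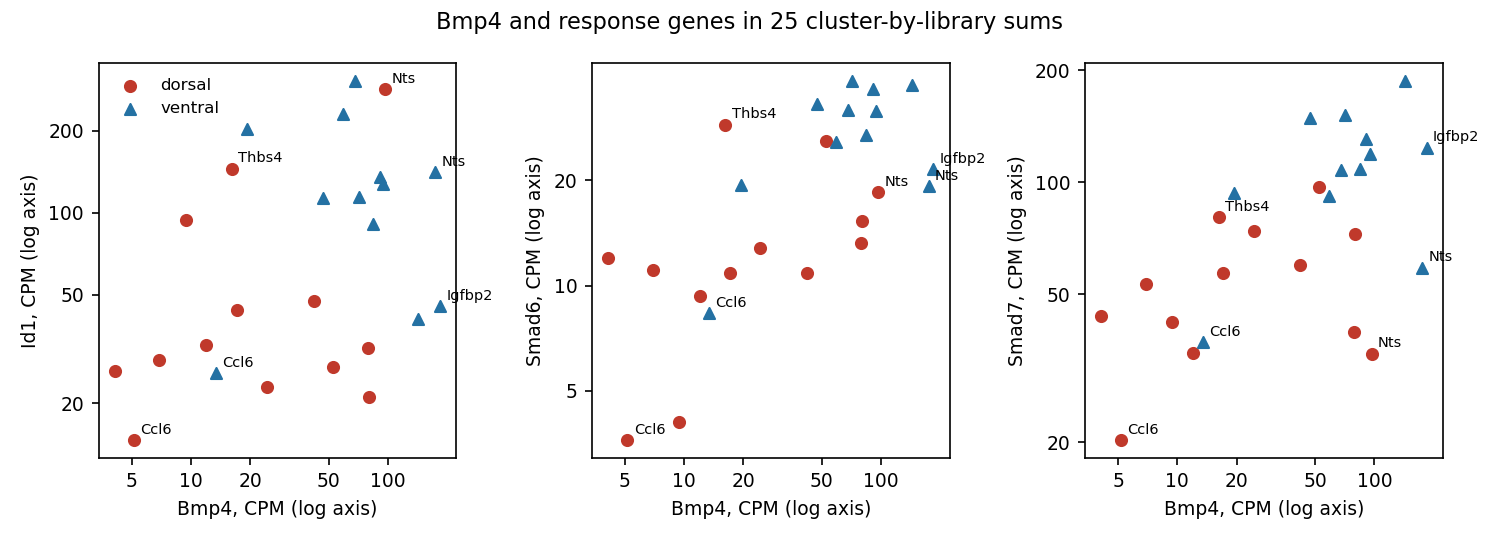
CPM of Id1, Smad6 and Smad7 (vertical, log axis) against CPM of Bmp4 (horizontal, log axis) in the 13 dorsal (circles) and 12 ventral (triangles) cluster sums; Ccl6 marks macrophage-like, Nts endothelial-like, Igfbp2 ventral mural-like and Thbs4 dorsal fibroblast-like cells. Smad6 and Smad7 tend to be higher where Bmp4 is higher (r of 0.70 and 0.61), and the Igfbp2 cluster has the highest Bmp4, 184 CPM, with 45.5 CPM of Id1.

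Within clusters, thinned cells with a Bmp4 UMI were compared with cells without one, in the 19 sums with at least 30 cells on each side. Smad7 was higher in cells with Bmp4, beyond counting error, in 5 sums and lower in 1, with a median log2 difference of 0.18. The widest were the ventral Higd1b mural-like cluster, with 237 CPM in cells with and 158 CPM in cells without Bmp4 (0.58, 0.35 to 0.82), and the dorsal Sele cluster, with 107 and 74.0 CPM in cells with and without it (0.54). Smad6 was higher in 4 sums and lower in 1, with a median of 0.19. Id1 was higher in 3 and lower in 4, with a median of -0.03; in the Thbs4 cluster it was 88.2 CPM in cells with and 180 CPM in cells without Bmp4 (-1.03, -1.69 to -0.44). Id3 was higher in 4 and lower in 7. For Bmp2 there were 7 such sums, and Id1 and Smad6 were beyond counting error in 0 of them in either direction. Id2 was higher in 3 and lower in 2, Id3 higher in 3 and lower in 1, and Smad7 higher in 1 and lower in 0. The share of all genes beyond counting error in these comparisons is not given. So these counts cannot be read as particular to the BMP genes. No adjustment over the sums was made, cells of 1 library are not replicates, and a BMP ligand acts on neighbouring cells, which these data do not place.

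Other genes of the pathway were read from 5 lists, beside all-gene shares past 2-fold of 7.9% on the dorsal and 5.26% on the ventral side. Of the 12 receptor and co-receptor genes, 11 were measured, and the list median log2 ratio was 0.04, against 0.09 over all genes. Only Bmpr1b (2.86 CPM in dorsal, 0.628 CPM in ventral cells, log2 2.19) and the co-receptor gene Eng (36.6 and 76.1 CPM in dorsal and ventral cells, -1.06) were 2-fold apart. The main receptor genes differed little: Bmpr1a had a ratio of 0.11, Bmpr2 -0.10 and Acvr1 0.04. None of the 4 signal-carrying Smad genes was 2-fold apart, with ratios of -0.17 for Smad1, 0.40 for Smad5, -0.23 for Smad9 and 0.21 for Smad4.

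For the counts below, 7.9% of all genes at the 1 CPM minimum passed 2-fold on the dorsal side and 5.26% on the ventral side. The genes of the antagonist list differed widely and in both directions. They were listed by name, and whether their products are secreted or bind BMPs in these cultures was not measured. Of 14 at the 1 CPM minimum, 4 passed 2-fold on the dorsal side, among them Grem1 (65.1 CPM against 1.68 CPM in ventral cells, log2 5.28), Chrdl1 (3.82) and Nog (1.76). Another 3 passed it on the ventral side, Sost (0.847 CPM in the dorsal and 18.3 CPM in the ventral cells, -4.43), Fstl3 (17.7 and 63.5 CPM, -1.84) and Crim1 (52.0 and 126 CPM, -1.28); the list median was 0.06. Sost had its highest level, 303 CPM, in the Igfbp2 mural-like cluster that also had the highest Bmp4. Of 4 other ligand genes at the minimum, Gdf10 was higher in dorsal cells (111 CPM against 8.65 CPM in ventral cells, 3.68), and Gdf6 (16.3 against 87.2 CPM, -2.42) and Bmp3 (20.9 against 50.5 CPM, -1.27) were lower. Of 11 other target and feedback genes at the minimum, 1 was 2-fold apart, Atoh8 (8.16 CPM in the dorsal and 27.2 CPM in the ventral cells, -1.74), a transcription factor gene induced by BMP in liver and endothelial cells; the list median was -0.36, with Bambi, a decoy receptor gene, at -0.83 and Runx2 at 0.50.

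Atoh8 was also the gene most like Smad6 across the 25 sums, among 8445 genes at 20 CPM or more in at least 1 sum, with r of 0.87, and Mprip and F2r came next. For Smad7 the most alike were Plekhg2 (0.88), Atoh8 (0.87) and Mprip (0.87). Bmp4 was most like Tm4sf1 (0.88), Prex2 and Myo1d, and Bmp2 most like Col23a1 (0.87), Fam43a and Dock4. Bmp5 and Bmp7 were both most like the cartilage collagen gene Col2a1 (0.84 and 0.84), with Omd and Angpt1 next for Bmp5 and Dio2 and Mmp13 for Bmp7. Bmp6 was most like Gata4 (0.87), Ctla2a and Ppfibp1. Srsf9 (0.80) and Ddx23 were among the 3 genes most like Id1. Id3 was most like Grb10 (0.84), Trip6 and Serpinh1, and Id2 most like Adap1 (0.72), Glrx and Prdx1. These are the highest of many values over sums from 2 libraries.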

How the data were processed

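The data are single-cell 3' libraries, 1 of dorsal and 1 of ventral cells. Cell Ranger 3.0.2 and the mm10 build were used, per the submitters' processing notes. Which annotation release was used is not given in the sources used here. Matrices, as deposited by the authors, hold unnormalised UMI counts of 28692 genes for all 6794880 barcodes of each library, cells and empty droplets alike. Barcodes with at least 8000 UMIs and at most 20% mitochondrial UMIs were kept.

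Counts were summed per library, class or cluster and divided by the summed UMIs (CPM). Exact Poisson, conditional binomial and Clopper-Pearson intervals were used at 95%. A ligand or response gene's share of cells was taken after each cell was thinned to 8000 UMIs. No test was run across genes: with 1 library per domain, a gene counts as apart at a 2-fold difference, at a mean of at least 1 CPM (10 CPM within classes). The ratio and interval code was checked on simulated data.

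Clustering used scanpy 1.11.5 with 2000 variable genes, none of them BMP pathway genes, 30 components, 15 neighbours and Leiden resolution 1.0. Each cluster was given the class of which it had the largest part of the markers found in at least 25% of cells and at least 2-fold over the other cells (5 CPM added), with at least 3 markers and a fraction of 0.333 of the list; failing that, fibroblast-like required 5 fibroblast markers in at least 50% of cells and no class ahead of fibroblasts in markers among the 10 leading genes. Clusters under 30 cells, with 3 or more cell cycle genes among the 10 leading genes, or, outside fibroblast-like, with no class marker among them stayed unnamed. These last conditions and the 10 CPM class minimum were set after the clusters had been seen; an earlier version called the Saa3 cluster mesothelial and the cell cycle clusters mesothelial and mural. Scrublet marked 5.11% of ventral barcodes; in the dorsal library its threshold marked 0%, so the 637 barcodes (7.14%) with the highest scores were marked. Marked barcodes were kept, and removed as an alternative. TMM used edgeR 4.0.16.

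The 10 genes and all lists were chosen with earlier results of these data known. The pathway lists were receptors and co-receptors, signal-carrying Smads, other BMP and GDF ligands, antagonists, and other target and feedback genes. Named genes were all 10 genes, the 3 genes most alike to each over cluster sums, and up to 4 members of each pathway list with the widest ratio in each direction; others were chosen after their values were seen. Some genes that this rule takes are not reported here.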

Additional observations from a re-analysis of the deposited data

Results flagged for a closer look

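The Id1 ratio between domains had opposite signs in different cell classes. The log2 ratio of dorsal over ventral CPM was 1.01 in endothelial-like cells, against -1.11 in Schwann and glial-like cells, -1.58 in fibroblast-like cells and -1.01 in mural-like cells. With 1 library per domain the difference between classes was not tested.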

How the results depend on the processing

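No paired analysis was possible because there is 1 library per domain and the labels give no replicate numbers. Depth limits Bmp7 (12 ventral UMIs), Bmp5 and Bmp6 most. At a 3-fold threshold the BMP genes higher in dorsal cells went to 0 (1 at 2-fold) and those higher in ventral cells to 2 (4 at 2-fold). At 1.5-fold the counts were 1 and 4. The shares of all genes past 3-fold and 1.5-fold are not given, so these counts only describe the BMP genes at the minimum. Over all genes, no filter gave 3068 genes past 2-fold on the dorsal and 1300 on the ventral side, and a mean of 20 CPM gave 201 and 242, against 987 and 657 at 1 CPM. The pooled ratios kept their direction under all 10 alternatives to cell selection, scaling, doublets and class shares, with Bmp4 between -1.79 and -1.46, Id1 between -1.74 and -1.06, Smad6 between -1.53 and -1.25 and Bmp2 between 1.33 and 1.70. The widest span was that of Bmp7, from 0.35 to 2.87.

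Within classes, 97 of the alternative values stayed within their counting interval and 41 moved past it in the same direction. The other 7 changed sign: Bmp4 in Schwann and glial-like cells went to 1.84 when clustered again without marked barcodes, to 3.90 in the same cluster without them and to 2.29 in the first glial sub-cluster; Id2 in endothelial-like cells went to 0.15 and 0.12 without marked barcodes; Smad6 in endothelial-like cells went to 0.041 at resolution 0.5; and Id2 in mural-like cells went to 0.51 at resolution 2.0. Across cluster sums, r changed sign in at least 1 of 5 alternatives for 20 of 45 gene pairs: 8 in dorsal sums, 11 in ventral sums, 6 without endothelial, macrophage, glial and muscle clusters, 2 at resolution 2.0 and 1 on log2(CPM + 10). Among them were Bmp2 with Smad6 (0.23 in dorsal sums), Bmp5 with Smad7 (0.50 in ventral sums), Id1 with Id2 (-0.18 in ventral sums), Bmp2 with Id1 (0.42 in dorsal sums and 0.039 on log2(CPM + 10)) and Bmp7 with Id1 (0.18 in dorsal and 0.35 in ventral sums). The cause of each of these changes was not tested.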
